A study of Homo sapiens with 2 samples.

Results

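Chromosome 20 held 476 of the 10041 peaks in a pan-crotonyllysine (pan-Kcr) ChIP-seq peak list of T98G cells, which is 4.74% of the list. The members were all listed peaks with this chromosome name, and the chromosome was chosen by its peak density, the highest of the 22 autosomes. Its density is therefore given as a description with no test. T98G cells are a long-established line grown from a human glioblastoma. The cells received crotonate for 48 h, at 10 µM according to the design text, while no dose stands in the paper. Chromatin bound by an antibody against crotonylated lysine gave 1 ChIP library, and unselected chromatin of cells with the same treatment gave 1 input library. Untreated cells are not analysed here, so no value below is an effect of crotonate, and no replicate check was possible.

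Lysine crotonylation is an acylation of lysine side chains, best known on histones, for which crotonyl-CoA is the donor. Acetyltransferases such as EP300 also transfer the crotonyl group, and crotonate supplied to cells can be turned into crotonyl-CoA by the synthetase ACSS2, whose gene lies on chromosome 20. Histone crotonylation is known from active promoters and enhancers.

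The peaks of chromosome 20 were low. The count of ChIP fragments at a summit was worked back from the authors' fold enrichment and p-value, with formulas assumed for the unnamed caller. The same step gave the background, the fragments per base expected at the summit by the peak caller. Of the 476 peaks, 312 (65.5%) rested on 2 fragments, 144 on 3, 19 on 4 and 1 on 6. Fold enrichment, the caller's ratio of signal to background, had a median of 2.66 and a range of 2.52 to 5.15. No p exceeded 0.000987. After the caller's adjustment for multiple tests (q) the smallest value was 0.318, 336 of the peaks stood at 1, and 0 were under 0.05. The values below thus describe the list, and no single peak passed the usual limit for multiple tests.

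Promoter sequences show where the listed peaks lay at starts of genes. They are the 250 bases before a RefSeq start on GRCh38.p14, chosen for the 6 genes whose promoter peak lay nearest to such a start. The deposited coordinates were read as GRCh38, because 95.4% of 351 assigned transcripts lay within their gene on that assembly (5 kb allowed) and 28 of 139 coding transcripts began at exactly the same base as its promoter table. In the first 3 promoters the peak reached into the sequence, and capitals mark the bases it covered.
PMEPA1 (chr20:57690687-57690936, - strand): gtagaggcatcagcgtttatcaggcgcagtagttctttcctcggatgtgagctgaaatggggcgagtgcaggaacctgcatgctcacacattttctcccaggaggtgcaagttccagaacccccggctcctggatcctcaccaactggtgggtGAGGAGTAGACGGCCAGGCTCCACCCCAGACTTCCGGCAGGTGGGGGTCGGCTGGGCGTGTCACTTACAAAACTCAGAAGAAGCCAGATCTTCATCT
LINC01713 (chr20:6736137-6736386, - strand): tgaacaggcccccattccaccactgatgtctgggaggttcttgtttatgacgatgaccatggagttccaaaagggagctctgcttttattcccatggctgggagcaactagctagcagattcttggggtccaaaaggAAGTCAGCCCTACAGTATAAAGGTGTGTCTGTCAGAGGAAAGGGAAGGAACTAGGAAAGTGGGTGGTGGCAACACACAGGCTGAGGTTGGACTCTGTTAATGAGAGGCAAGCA
LINC01524 (chr20:52620588-52620837, + strand): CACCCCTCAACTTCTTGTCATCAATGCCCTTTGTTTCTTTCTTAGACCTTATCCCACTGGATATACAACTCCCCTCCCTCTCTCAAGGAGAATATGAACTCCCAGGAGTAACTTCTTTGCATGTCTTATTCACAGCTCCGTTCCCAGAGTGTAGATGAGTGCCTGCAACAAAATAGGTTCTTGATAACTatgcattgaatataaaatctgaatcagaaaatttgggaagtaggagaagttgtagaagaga
PMEPA1 encodes a membrane protein that dampens TGF-beta signalling. Its peak, of 2 fragments, covered the last 97 bases before the start and ran 328 bases past it. The peak at the long non-coding RNA gene LINC01713 covered the last 113 bases before the start and ran 247 bases past it. At LINC01524 the peak ended 62 bases before the start.
In the other 3 promoters the peak began after the start. Here capitals mark the letters GGGCGG (the core of a GC box), CCAAT and TATAAA on either strand.
ID1 (chr20:31605039-31605288, + strand): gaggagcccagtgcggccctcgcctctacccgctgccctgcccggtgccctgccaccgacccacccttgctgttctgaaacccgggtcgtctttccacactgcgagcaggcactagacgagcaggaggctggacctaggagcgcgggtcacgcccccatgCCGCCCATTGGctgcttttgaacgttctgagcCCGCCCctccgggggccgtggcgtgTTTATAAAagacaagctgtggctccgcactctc
SDCBP2 (chr20:1325870-1326119, - strand): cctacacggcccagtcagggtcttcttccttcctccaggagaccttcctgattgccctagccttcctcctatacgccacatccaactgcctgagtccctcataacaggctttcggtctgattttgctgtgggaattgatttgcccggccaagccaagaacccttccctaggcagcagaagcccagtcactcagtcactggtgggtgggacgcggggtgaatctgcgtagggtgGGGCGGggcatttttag
PCSK2 (chr20:17226790-17227039, + strand): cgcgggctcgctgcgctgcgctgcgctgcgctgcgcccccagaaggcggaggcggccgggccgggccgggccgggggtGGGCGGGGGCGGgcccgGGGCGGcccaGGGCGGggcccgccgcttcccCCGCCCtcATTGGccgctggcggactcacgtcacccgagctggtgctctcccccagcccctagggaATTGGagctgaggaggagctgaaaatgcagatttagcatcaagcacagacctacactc
ID1 encodes an inhibitor of differentiation that blocks basic helix-loop-helix factors, and its 3-fragment peak began 32 bases after the start. SDCBP2 encodes a syntenin with PDZ domains, and its 3-fragment peak began 38 bases after the start. PCSK2 encodes a protease that matures prohormones, and its 2-fragment peak began 59 bases after the start. The 6 sequences differed widely in composition. PCSK2 held 26 CG pairs and ID1 held 19, whereas LINC01713 and LINC01524 held 1 each.

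The letters of these motifs were searched in the 921 promoter sequences of chromosome 20, several of which can belong to 1 gene. GGGCGG stood in 18 of the 38 with a peak within 1 kb of the start, against 40.1% of all on chromosome 20 and 42.6% of all 35116 in the table. CCAAT stood in 15 of the 38, against 30.5% on chromosome 20. TATAAA stood in 8 of the 38, against 11.0% on chromosome 20. The exact 95% interval for TATAAA, 9.55% to 37.3%, included the share on the chromosome, as did those for the other motifs. Sequences of the same gene are not independent, so these intervals can be too narrow. A match of letters is a description and not a binding site.

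The peaks spanned 64.1 Mb, from base 94665 to base 64222759, at 7.42 peaks per Mb (exact 95% Poisson interval 6.77 to 8.12). The other 21 autosomes together held 9393 peaks at 3.47 per Mb, a ratio of 2.14. Chromosome 22, the next in the order, had 5.71 peaks per Mb, and chromosome 4, the last, had 1.66. Length was taken from the first to the last peak of a chromosome, which leaves out the short arm of chromosome 22. With the span of the annotated genes as length chromosome 20 stayed first at 7.41 per Mb, while chromosome 11 came next at 4.32 and chromosome 22 had 3.80. Chromosome 20 was not the most gene-rich. Over the first length it had 8.37 protein-coding genes per Mb, which was rank 6, while chromosome 19 had 25.05. Per coding gene it had 0.886 peaks, and the other autosomes together had 0.505. Chromosome 5 followed closely with 0.835, and chromosome 19 had the lowest value, 0.171.

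Background was also higher at the peaks of chromosome 20. The lowest background of the list, 0.0999 fragments per base, was found at 40 of its peaks (8.40%, exact 95% interval 6.07 to 11.3) and at 37.0% of the peaks elsewhere. Within 2-fragment peaks, where height was the same, the shares were 10.3% and 38.8%. The mean background of 2-fragment peaks was 0.154 on chromosome 20 and 0.131 on the other autosomes, and the next highest single chromosome, 15, had 0.140. Over the other 21 autosomes peak density rose with this mean (Spearman's rho 0.819) and with coding genes per Mb (rho 0.664). With gene span as length these were 0.692 and 0.634. These points share 1 library pair and are given as a description. Because background was recovered from called peaks alone, it is not the input coverage of the chromosome, and its part in the density was not tested. The copy number of the chromosome in T98G cells was not measured here.

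**Figure D1:**
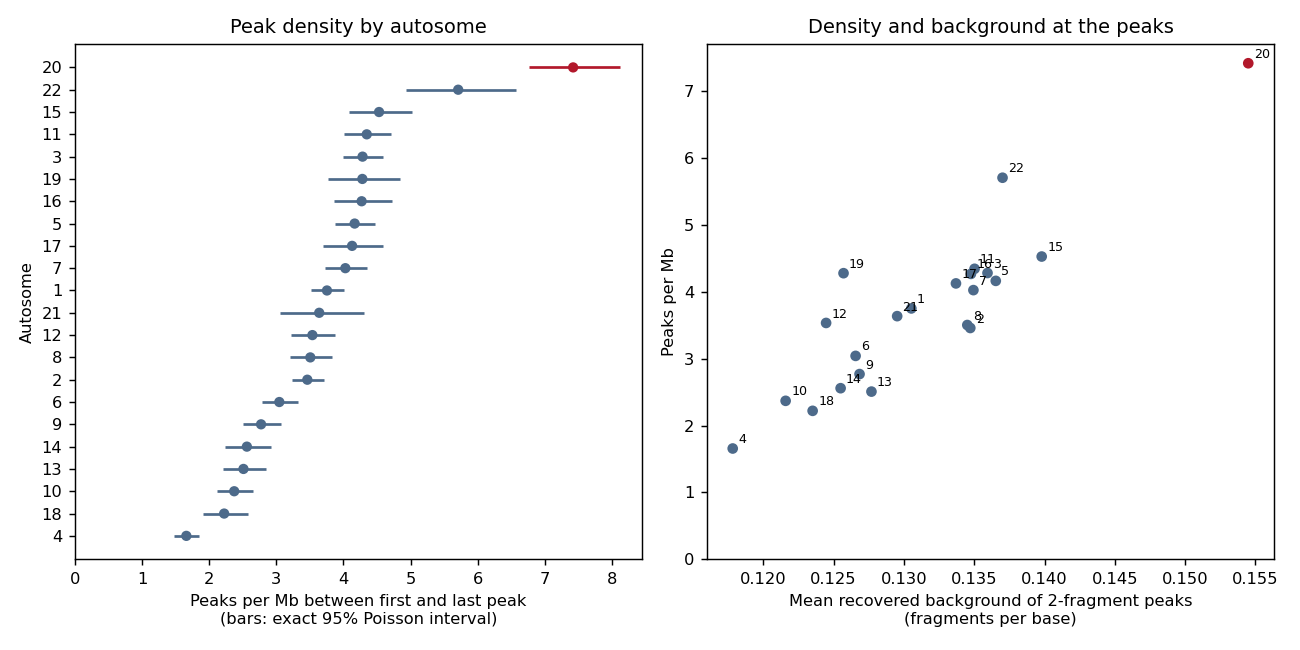
Left, peaks per Mb of each autosome with exact 95% Poisson intervals, chromosome 20 in red. Right, peaks per Mb against the mean recovered background of 2-fragment peaks in fragments per base, each point 1 autosome. Chromosome 20 lies apart at 7.42 peaks per Mb and 0.154 fragments per base, with chromosome 22 next at 5.71 over this length.

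Taller peaks made up more of the list on chromosome 20. Peaks of 3 or more fragments were 164 of 476, or 34.5% (30.2 to 38.9), against 25.5% on the other autosomes. The difference was 8.95 percentage points, with a Newcombe 95% interval of 4.72 to 13.4. Chromosome 15 came next with 30.1%. Against chromosome 22 alone and chromosome 21 alone the intervals, −0.329 to 14.7 and −1.54 to 15.5 points, included 0. Against chromosome 19 alone the interval was 1.12 to 14.95. On chromosome 20 listed 2-fragment peaks reached a background of at most 0.190, and 3-fragment peaks one of 0.370. The list thus kept taller peaks at higher background, and the part of this in the share was not tested. Intervals here cover counting error only, because all peaks come from 1 library. Despite the taller peaks the median fold, 2.66, was the lowest of the 22 autosomes and lay below the 2.73 of the others; fold is a ratio to background. Median peak width was 327.5 bp on chromosome 20 and 314 bp elsewhere.

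The highest peaks lay in all kinds of sequence. The first, at chr20:62769322-62769753, had 6 fragments and a fold of 5.15 and lay in intergenic sequence 5949 bp from LINC00659, a long non-coding RNA gene. The second, at chr20:25416427-25416757, had 4 fragments and 4.55-fold enrichment at a promoter of GINS1, a subunit of the GINS complex that drives the replicative helicase. It lay 2970 bp past the start, inside the gene. A peak of 4.46-fold at chr20:55939141-55939637 lay 65.9 kb from CBLN4, which encodes a secreted organiser of synapses. These 3 peaks had backgrounds of 0.359, 0.0999 and 0.120 fragments per base, so the highest fold did not go with the lowest background.

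Coding genes held several of the next peaks. Intron 1 of RALGAPB, whose protein is the beta subunit of a GTPase-activating complex for Ral, held a peak of 4.39-fold. SLC24A3, a potassium-dependent sodium/calcium exchanger, held 2 of the first 10, in intron 3 (4.32-fold) and in exon 6 (4.24-fold). A peak nearest to the non-coding LINC01432 had the same fold and background as the one in exon 6 and fell outside the 10 only by its position. The promoter of SOX12, an SRY-related transcription factor gene of the SoxC group, held a 4.24-fold peak 204 bp from its start. The others of the first 10 lay nearest to the non-coding gene AL009050.1 (4.32-fold), the pseudogene PPIAP3 (4.27-fold) and the 5S-related RNA5SP486 (4.27-fold). Apart from the first, all had 4 fragments, and their order was set by background alone.

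High background was found at promoters too. The peak with the highest background, 0.717 fragments per base, lay 1333 bp upstream of a start of CHRNA4, the alpha-4 subunit of the nicotinic acetylcholine receptor, and its 4 fragments gave only 2.91-fold enrichment. A 4-fragment peak 687 bp upstream of LAMA5, a laminin chain of basement membranes, had a background of 0.538 and a fold of 3.25.

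The short arm held 172 peaks and the long arm 304, or 63.9% (59.4 to 68.2), when the arms were divided at 28 Mb. Between its first and last peak the short arm had 6.55 peaks per Mb (5.61 to 7.61) and the long arm 8.65 (7.70 to 9.68). The long arm was also richer in genes, with 10.2 coding genes per Mb against 6.86. Per coding gene the order turned, with 0.956 peaks on the short and 0.852 on the long arm. A peak was assigned to 47 of 180 coding genes on the short arm (26.1%) and 94 of 357 on the long arm (26.3%), a difference of 0.219 points (−7.88 to 7.80). Peaks of 3 or more fragments were 30.2% of the short arm and 36.8% of the long arm, and the interval of that difference, −2.31 to 15.1 points, included 0. Mean background of 2-fragment peaks was 0.153 and 0.155.

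In fixed bins of 5 Mb, counted from the end of the short arm, the bins held 33, 26, 31, 33, 39, 11, 45, 36, 40, 36, 49, 57 and 40 peaks. Bin 6, from 25 to 30 Mb, was the lowest and includes the centromere, and bin 13 is not full. The median of the 12 full bins was 36. The 534 full bins of the other autosomes had a median of 17, with quartiles of 11 and 23, and 6 of them (1.12%) reached 36. On chromosome 20, 11 of the 12 full bins were above 23. High density was thus spread along both arms and did not rest on 1 region. The highest bin of any other autosome held 41 peaks, and 3 full bins of chromosome 20 held more.

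Bin 12, from 55 to 60 Mb, was the densest with 57 peaks (exact 95% Poisson interval 43.2 to 73.9), or 11.4 per Mb. It holds CBLN4, BMP7, RAE1, PMEPA1, GNAS and PHACTR3, and 15 of its 39 coding genes had an assigned peak. Bin 1 had most coding genes, 81, and held 33 peaks, while bin 11 had only 24 coding genes and held 49 peaks. Over the 12 full bins Spearman's rho of peaks with coding genes was 0.491 and with mean background of 2-fragment peaks was −0.00702. Bin 6, with the centromere, was lowest both in peaks, 11, and in coding genes, 9, and rho without it was not computed. Every bin had a mean background of 2-fragment peaks above that of any other autosome, from 0.143 in bin 5 to 0.166 in bin 11. The share of peaks with 3 or more fragments ran from 19.4% in bin 3 to 52.8% in bin 8.

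**Figure D2:**
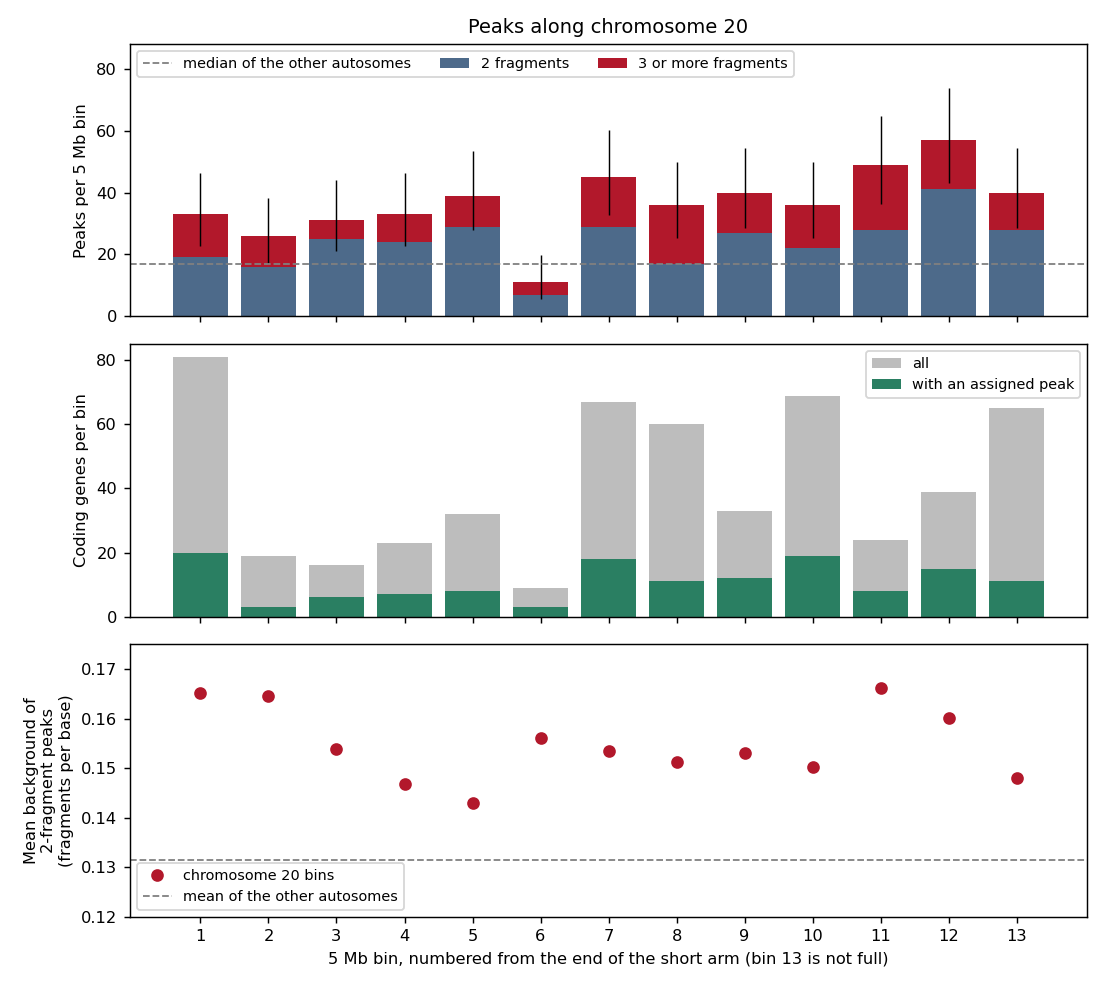
Top, peaks per 5 Mb bin by number of fragments with exact 95% Poisson intervals for the total, and the median of the other autosomes, 17, as a dashed line. Middle, coding genes per bin and those with an assigned peak. Bottom, mean background of 2-fragment peaks per bin in fragments per base, with the mean of the other autosomes, 0.131, as a dashed line. Peaks exceed 17 in every bin but bin 6, which holds 11.

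Neighbouring peaks lay a median of 88.6 kb apart, against 170 kb on the other autosomes. The longest stretch with no peak, 2731 kb, ran across the centromere from 26339335 to 29070263, and the next, 1232 kb, followed it and held 0 coding genes. The one after these in length was 809 kb on the short arm, from 13853706 to 14662751. It held 1 whole coding gene, FLRT3, which encodes a cell adhesion protein with leucine-rich repeats. Of 475 neighbouring pairs 38 (8%) lay within 10 kb. This share was not computed for the other autosomes, and grouping of peaks was not tested. At this distance 3 runs of 3 peaks were found. The first lay in XKR7 over 12.4 kb, another in intron 1 of PTPRT over 14.3 kb, and the last near the pseudogene RPSAP1 over 12.2 kb.

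By the authors' annotation 109 peaks of chromosome 20 (22.9%, 19.2 to 26.9) lay at promoters, within 3 kb of a start. The share on the other autosomes was 21.5%, and the interval of the difference, −2.24 to 5.47 points, included 0. Introns held 167 peaks, or 35.1%, against 43.1%, a difference of −8.04 points (−12.3 to −3.54). This compares with the other autosomes pooled. The intron share of each single autosome was not computed, so a low share is not shown to be particular to chromosome 20. The deficit lay in later introns, with 23.9% against 30.8% (difference −6.86, −10.6 to −2.72), while first introns held 11.1% against 12.3% (−3.79 to 2.03). Distal intergenic sequence held 166 peaks, or 34.9%, against 30.4%, a difference of 4.52 points (0.272 to 9.004). Among the 22 autosomes this share was only rank 6. The others ran from 15.7% on chromosome 19 to 42.3% on chromosome 13. Exons held 18 peaks, or 3.78%, against 2.29%, and the interval of that difference, 0.0789 to 3.63 points, came close to 0. The 3′ UTR held 10 peaks, downstream sequence 5 and the 5′ UTR 1.

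The intron deficit was present at both heights. Among 2-fragment peaks 37.5% lay in introns against 43.4% (−11.3 to −0.319 points), and among taller peaks 30.5% against 42.2% (−18.6 to −4.07). The intergenic excess was seen in taller peaks, at 37.8% against 29.1% (1.37 to 16.5 points), whereas in 2-fragment peaks the interval, −2.55 to 8.07, included 0. Whether the differences of the 2 heights differ from each other was not tested. Spans of coding genes covered 43.0% of chromosome 20 and 43.4% of the other autosomes, and 46.0% and 48.9% of the summits lay within them (difference −2.88, −7.42 to 1.72). Inside coding spans of chromosome 20 there were 0.794 peaks per 100 kb, and outside them 0.703.

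Set against the small chromosomes 19, 21 and 22 together, chromosome 20 had fewer promoter peaks, by 16.4 points (interval of the difference −21.8 to −10.8), and more intergenic peaks, by 15.8 points (10.5 to 21.2). Promoters held 48.0% of the peaks of chromosome 19 and 38.3% of chromosome 22. Chromosome 21 was nearest to chromosome 20, with 24.8% at promoters and 29.2% in intergenic sequence, and both intervals of the difference included 0.

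**Figure D3:**
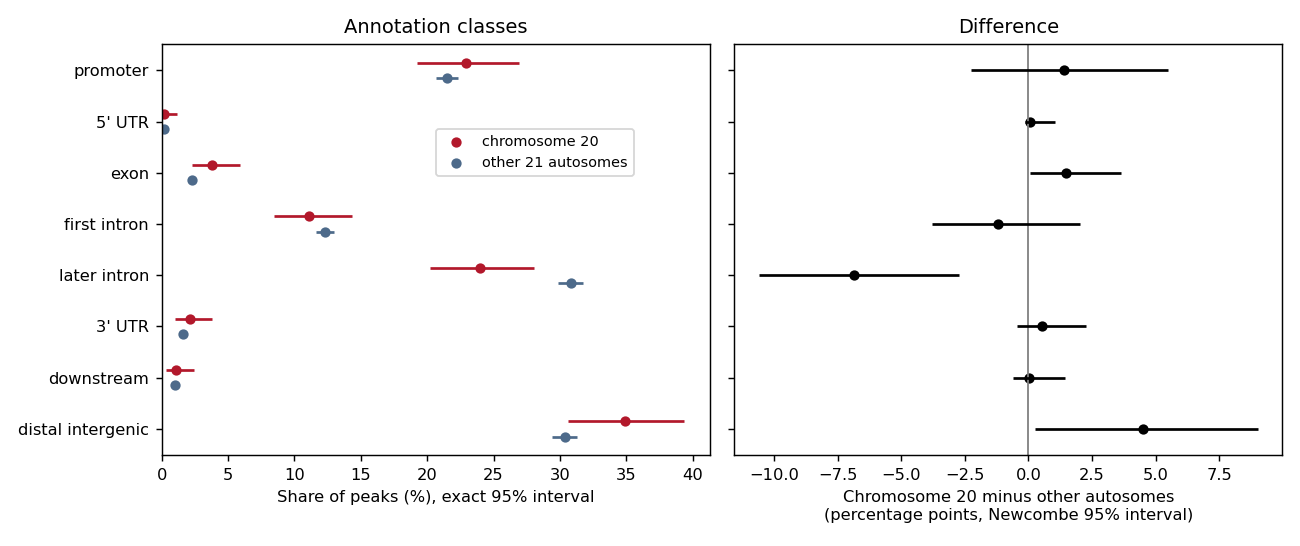
Left, share of peaks in each annotation class in percent, with exact 95% intervals, on chromosome 20 (red) and the other 21 autosomes (blue). Right, the difference in percentage points with Newcombe 95% intervals. Later introns lie below 0, at −6.86, and distal intergenic sequence lies above it, at 4.52.

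The authors assigned each peak to the gene with the nearest start, of any type. On chromosome 20 this was a protein-coding gene for 210 peaks (44.1%), a long non-coding RNA gene for 143 (30.04%), a pseudogene for 75 (15.8%) and a small RNA or other gene for 48 (10.1%). The shares on the other autosomes were 46.0%, 27.3%, 18.6% and 8.14%. Of 219 summits inside a coding gene, 85 (38.8%) were assigned to some other gene, against 34.2% elsewhere (difference 4.58, −1.78 to 11.3). Genes are therefore described below both by assignment and by the summits within their span. Starts also depend on the annotation. Of 51 promoter peaks assigned to coding genes with an entry in the RefSeq promoter table, 22 lay within 3 kb of a start listed there for that gene and 21 lay over 10 kb from one.

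Of 537 coding genes on chromosome 20, 141 (26.3%) had an assigned peak, against 17.4% on the other autosomes, a difference of 8.82 points (5.23 to 12.7). A promoter peak was assigned to 57 (10.6%), against 6.09%, and a summit lay within the span of 134 (25%). More peaks reach more genes, so these shares follow from the density that chose the chromosome and are no separate result. Long genes held a summit more often than short ones. Of 19 genes of 200 kb or more 18 held one, with 67 peaks in all, while 23 of 254 genes under 20 kb did. The 19 long genes add up to 9.64 Mb, and these counts are not corrected for length.

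The longest gene held most peaks. MACROD2, a 2058 kb gene for a hydrolase of ADP-ribose marks, held 9 peaks, all of 2 fragments with folds of 2.53 to 2.73. Per length it was below the chromosome, with 0.437 peaks per 100 kb against 0.742. PTPRT, a receptor tyrosine phosphatase of neurons, held 8 peaks with folds of 2.53 to 4.24, or 0.691 per 100 kb. CDH4, the gene of R-cadherin, held 7 peaks, of which 1 in an intron had 4 fragments and a fold of 4.19. PHACTR3, which encodes a regulator of protein phosphatase 1 and actin, held 5 peaks, all of 2 fragments and between 2.54-fold and 2.73-fold. SLC24A3 also held 5, and none was assigned to it.

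Some shorter genes with several peaks are given with their rates, which are high because genes with 3 or more peaks were picked. NFATC2, a calcium-regulated transcription factor of the NFAT family, held 5 peaks, or 2.84 per 100 kb, of which 3 had 3 or more fragments. BCAS1, a gene amplified in breast cancer and active in oligodendrocytes as they myelinate, held 4 peaks in 127 kb, or 3.15 per 100 kb. RALGAPB held 3, and all had 3 or more fragments, with folds of 4.39, 3.36 and 3.42. RAE1, a messenger RNA export factor, held 3 in 27.9 kb. Its promoter peak had a fold of 3.39, and the others, in the last intron and the 3′ UTR, had 2.59 and 2.53.

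**Figure D4:**
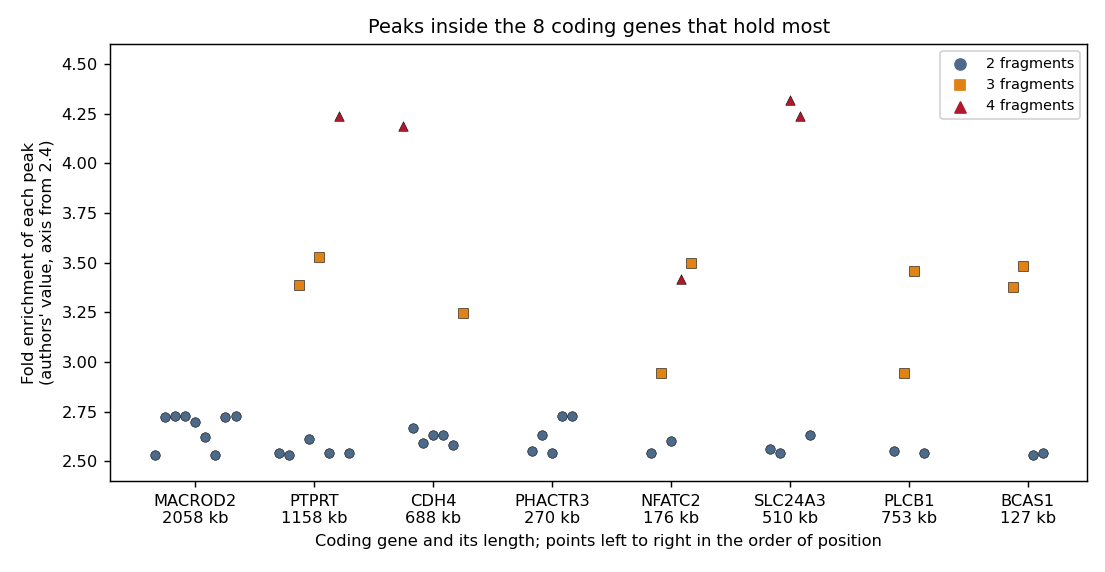
Fold enrichment of each peak with its summit inside the 8 coding genes that held most, with the axis from 2.4. Colour and shape give the number of fragments, and gene length stands under each name. All 9 peaks of MACROD2 lie at 2.73 or lower, while SLC24A3, PTPRT and CDH4 each hold at least 1 peak above 4.

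By assignment PHACTR3, PMEPA1 and the small RNA pseudogene RN7SL680P had 5 peaks each. PMEPA1 had peaks in intron 1 (3.51-fold), at promoters (2.54-fold and 2.94-fold) and in intergenic sequence 58.4 kb and 67.7 kb upstream (3.59-fold and 2.53-fold). The 4 peaks of CBLN4 lay on both sides of the gene and in its last intron, and 3 of them had 3 or 4 fragments. PLCB1, a phospholipase C that cleaves phosphoinositides, had 4, as had PREX1, an exchange factor for Rac. Others with 4 were the non-coding AL158090.1, the pseudogene PA2G4P2 and MIR3194.

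MicroRNA genes received peaks from their hosts. The 4 peaks of MIR3194 lay in introns of NFATC2, 6.48 kb to 42.9 kb from the microRNA. Peaks of 3 fragments and 2.94-fold enrichment lay close to 2 other microRNA genes, 96 bp upstream of MIR1825, which lies within POFUT1, and 156 bp upstream of MIR646. The RefSeq mature sequences of these 2 microRNAs follow, with the seed, bases 2 to 8, in capitals.
miR-1825 (chr20:32237830-32237847, + strand): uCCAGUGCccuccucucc
miR-646 (chr20:60308534-60308552, + strand): aAGCAGCUgccucugaggc
The seeds differ. Whether either microRNA is made in T98G cells was not measured here.

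Lists of genes on chromosome 20 were then read against the 26.3% of all its coding genes with an assigned peak. The lists were drawn up with earlier results of these data known, and 184 genes stand in 11 lists. The 210 peaks assigned to coding genes had a median fold of 2.64, and 33.8% of them had 3 or more fragments.

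Of 23 genes for crotonyl-CoA supply and chromatin, 9 had an assigned peak, 3 of them at a promoter, and 10 held a summit. ACSS2 held 1 peak in an exon, at chr20:34908734-34909074, with 2 fragments and a fold of 2.53. The strongest peak was a 4-fragment peak of 4.22-fold in the 3′ UTR of DIDO1, which encodes a PHD finger protein. CHD6, a chromatin remodeller, held a 3.60-fold peak in an intron. CBFA2T2, a co-repressor of the ETO family, held a 3.59-fold intron peak and a 2-fragment peak over a promoter start (2.57-fold). PHF20, a reader of methylated lysine, held a 3.42-fold intron peak. In span the list had 0.739 peaks per 100 kb, close to the 0.794 of coding spans on the chromosome.

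Of 25 genes known from glioma and neural stem cells 9 had an assigned peak, and 6 had one at a promoter. Besides SOX12, PTPRT and CDH4, ID1 had a promoter peak of 3.46-fold. BMP7, a bone morphogenetic protein, had a 2-fragment promoter peak of 2.59-fold and PLCG1, a phospholipase C downstream of receptor kinases, had 2 promoter peaks of 2.71-fold and 2.65-fold. The median fold of the list was 2.65. In span it had 24 peaks, or 0.963 per 100 kb, against the 0.794 of coding spans.

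Neuronal and synaptic genes had an assigned peak in 14 of 35, and 17 held a summit, with 51 peaks in span. At 0.780 peaks per 100 kb they were close to the average of coding spans. The strongest lay in SLC24A3, PTPRT and CDH4, given above, and in CDH22, a cadherin of brain, at 3.46-fold in intron 1. Promoter peaks included 2 of 2 fragments at SLC12A5, the neuronal potassium-chloride cotransporter, at 2.72-fold and 2.73-fold. Both lay upstream of the start used by the authors' annotation but inside the RefSeq span of the gene.

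Phosphoinositide and calcium signalling had the highest share, with 6 of 9 genes (66.7%, 29.9 to 92.5). These genes are long, with a median of 116.6 kb against 21.4 kb for all coding genes, and had 0.854 peaks per 100 kb. Their 15 assigned peaks had a median fold of 2.94, and 8 had 3 or more fragments. The strongest lay in intron 1 of PLCB1 (3.54-fold), intron 1 of NFATC2 (3.50-fold) and an intron of PREX1 (3.39-fold). PLCB4, a phospholipase C beta of retina and brain, held 1 peak of 3 fragments (2.94-fold).

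Of 26 genes of the long arm that are gained in cancers 6 had an assigned peak. A summit lay in 11 (42.3%), against 25% of all coding genes. These genes are long, with a median of 50.1 kb against 21.4 kb for all coding genes. In span they had 1.20 peaks per 100 kb, against 0.794 for coding spans. TPX2, a spindle assembly factor that activates Aurora A, had a 3.48-fold peak 4866 bp upstream of its start and a 2.65-fold peak in its 5′ UTR. BCAS1 and BCAS4 had intron peaks of 3.48-fold and 3.47-fold. POFUT1, which adds O-fucose to Notch receptors, held a 2.94-fold peak that was annotated as a promoter peak of MIR1825. E2F1, a cell cycle transcription factor, had a 2-fragment promoter peak of 2.66-fold, 2936 bp past its start. GNAS, the stimulatory G protein alpha subunit, held a peak of the same height that was annotated as a promoter peak of the non-coding AL121917.2.

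Of 25 zinc finger genes 8 had an assigned peak, 5 at a promoter. The strongest were promoter peaks of 3 fragments at ZNF341 (3.51-fold), a transcription factor that drives STAT3 expression, and ZNF335 (3.46-fold), a factor needed in neural progenitors. SNAI1, the repressor of E-cadherin, had a 3.44-fold peak 18.5 kb past its start, and ZFP64 one of 3.39-fold in an intron. Of 12 protein kinase genes only CSNK2A1, the catalytic subunit of casein kinase 2, had an assigned peak. It had 2 peaks, of 3.51-fold in the 3′ UTR and 2.62-fold in an intron. PAK5 and STK4 held summits that were assigned to other genes, with highest folds of 3.56 and 2.53. Per 100 kb of span the zinc finger genes had 0.610 peaks and the kinase genes 0.806.

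Clusters of genes for secreted proteins had peaks as well. Beta-defensins are small antimicrobial peptides, and 4 of 13 genes had an assigned peak. DEFB132 had a 4-fragment peak of 3.68-fold in intergenic sequence, 3555 bp past its start. DEFB125 had a 3.54-fold peak in its intron. DEFB121 had a 3.42-fold peak 3258 bp upstream of the start used by the authors' annotation. The 3.02-fold peak of DEFB115 was intergenic, 23.7 kb upstream, and its promoter peak was 2.53-fold. The cystatins, inhibitors of cysteine proteases, had an assigned peak for 3 of 11, all of 2 fragments. Those of CST7 (2.70-fold) and CST5 (2.60-fold) were intergenic, 5.67 kb and 15.4 kb from the start. That of CST8 (2.55-fold) lay within the gene. The protease inhibitors with WAP domains had an assigned peak for 3 of 16. That of SLPI (3.38-fold) was intergenic, 18.9 kb upstream of its start. Those of WFDC5 (3.25-fold) and WFDC8 (2.54-fold) lay at promoters. Of 11 BPI fold genes only BPIFA2 had one, at 2.94-fold. The intervals of the shares of these 4 lists all included the 26.3% of the chromosome. In span the beta-defensins held 4 peaks in 81.3 kb, or 4.92 per 100 kb. Cystatins had 1.21 per 100 kb from 1 peak, WAP domain genes 0.618 from 1 and BPI fold genes 0.

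**Figure D5:**
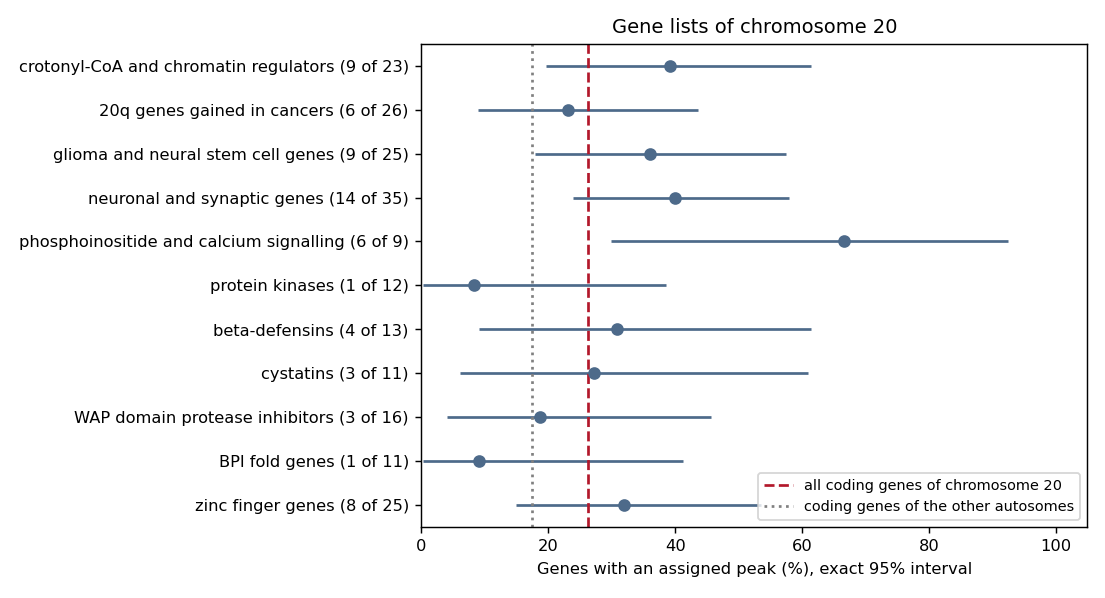
Share of genes with an assigned peak in each of 11 lists, in percent, with exact 95% intervals. The dashed line gives all coding genes of chromosome 20 (26.3%) and the dotted line those of the other autosomes (17.4%). Only the interval of phosphoinositide and calcium signalling, 29.9 to 92.5, lies wholly above the dashed line.

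The promoter peak nearest to a start was also taken from each bin, which gives the genes from the short-arm end to the long-arm end. They were SDCBP2, LINC01713, BTBD3, PCSK2, AL109807.1, ACSS1, CBFA2T2, AL121895.1, PLCG1, SLC12A5, PELATON, PMEPA1 and AL162457.2. ACSS1, the mitochondrial acetyl-CoA synthetase, had a 2-fragment peak of 2.54-fold 94 bp from its start. BTBD3, which orients dendrites in cortical neurons, had one of 2.54-fold at 173 bp. Of these 13 peaks only those of SDCBP2 (3.25-fold) and AL121895.1 (2.94-fold) had 3 fragments, and the other 11 had 2. The peak given for AL121895.1 lay inside EPB41L1, which encodes a membrane skeleton protein of neurons.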

How the data were processed

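Analysed here were 1 ChIP and 1 input library of crotonate-treated T98G cells, for which the authors deposited 1 peak list. Control cells of the study were not used. Its fold enrichment is the authors' ratio over background, and p and q were deposited as −log10 values. Class and nearest gene are the authors' annotation. The genome build was not given in the sources used here, nor were aligner, caller and threshold, and read depth is unknown. Fragments and background were recovered by reading fold as (fragments + 1)/(background + 1) and p as a Poisson probability. Simulated data for this step were made with the same formulas, so they checked the arithmetic only. They cannot show that the caller used these formulas. Members and lists were chosen with earlier results of these data known. Named were the 10 highest peaks, the 8 genes with most peaks with ties, up to 4 members per list, the promoter peak nearest to a start per 5 Mb bin, and ACSS2. Some further genes were named after their values were seen (CHRNA4, LAMA5, FLRT3, XKR7, MIR646 and the genes that held most summits). Some items that this rule names are not reported here. Genes, promoters and microRNAs came from RefSeq on GRCh38.p14. Assigned genes were matched by Ensembl identifier, or else by symbol, for 209 of 210 peaks assigned to coding genes. Shares have exact and differences Newcombe 95% intervals. No test was made. Alternatives were stricter peaks, merging, other bins, windows and reference chromosomes. Intervals came from scipy 1.17.1, tables from pandas 2.3.3 and numpy 2.4.6 under Python 3.11.15, and plots from matplotlib 3.10.9.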

Additional observations from a re-analysis of the deposited data

How the results depend on the processing

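Of 69 values recomputed under an alternative, 47 stayed within the 95% interval of the first value, or within 1.5 times for counts and the densest bin, and 22 did not. No value whose interval lay on one side of 0 changed direction. The promoter difference from the other autosomes was 1.40 points, and its interval included 0. It became −0.355 at a −log10 p of 4 or more and −0.737 with a window of 1 kb, and both of those intervals included 0 as well. Against chromosomes 19, 21 and 22 it was −16.4 points, and that interval, −21.8 to −10.8, lay wholly below 0. The density ratio of 2.14 became 1.62 with peaks at or above the median fold, 2.67 at a −log10 p of 4 or more, 2.89 with 3 or more fragments, 1.88 with 2 fragments only, 1.66 against chromosomes 19, 21 and 22, and 1.75 per coding gene. The median fold removes 2-fragment peaks above the lowest background, which were most of those on chromosome 20. The promoter share of 22.9% was 9.66% with a window of 1 kb and 33.2% with 5 kb. The share with 3 or more fragments was 83.7% at or above the median fold, with a difference of 36.8 points. Both values are raised by the removal of 2-fragment peaks at that cut. By construction the share was 100% at a −log10 p of 4 or more and with 3 or more fragments. The long-arm share of 63.9% was 68.3% with 3 or more fragments and 58.9% without the densest bin. The densest bin went from 11.4 to 4.2 peaks per Mb with 3 or more fragments, and was then the one from 50 to 55 Mb. Of 141 coding genes with an assigned peak, 69 were counted at or above the median fold, 53 at a −log10 p of 4 or more and 60 with 3 or more fragments. The difference in the share of coding genes, 8.82 points, was 2.25 (−0.359 to 5.38) at or above the median fold, 4.71 at a −log10 p of 4 or more and 13.5 against chromosomes 19, 21 and 22. The settings with 2 fragments only, without the densest bin, and with the summit in the gene span without a flank were chosen after seeing the data, as was gene span as length in the order of the autosomes. Long-arm share and densest bin have no value against chromosomes 19, 21 and 22. No paired analysis was possible because only 1 ChIP library was analysed here. With 2 fragments at most summits and no q under 0.05, single peaks are uncertain, and copy number was not measured.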
